A study of Mus musculus with 6 samples.

Results

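The genes described here are 9 genes of superoxide production and removal, Cybb, Cyba, Ncf1, Ncf4, Rac2, Sod1, Sod2, Cat and Gpx1, chosen by name from the 24062 genes counted in the series, and all 9 were found. The first 5 encode parts of the phagocyte NADPH oxidase and the other 4 encode enzymes that remove superoxide or hydrogen peroxide. The series measured RNA by sequencing in a mouse macrophage line, RAW264.7, under 6 conditions. M0 cells received no polarizing agent and no radiation, M1 cells received LPS at 100 ng/mL with IFN-γ at 20 ng/mL for 24 h, and M2 cells received IL-4 at 20 ng/mL for 24 h. These doses are those of the labels and the methods, and a figure legend of the study gives lower ones for both cytokines. RM0, RM1 and RM2 cells were treated likewise, given 10 Gy of gamma rays from a cesium source and then kept for 24 h. Whether the non-irradiated cells were also kept for those additional 24 h was not stated in the sources used here, so radiation and time in culture cannot be told apart. All groups share this cell line, with no gene altered, and the labels give bone marrow as its tissue. Each library was made from the pooled RNA of 5 wells, so each condition has 1 library and no spread between wells was measured. The question that the design poses for these genes is how polarization and irradiation, alone and together, moved the oxidase and the enzymes that act on its products.

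The phagocyte NADPH oxidase moves electrons from NADPH in the cytosol across a membrane onto oxygen and so makes superoxide. Its membrane core is flavocytochrome b, a pair of Cybb and Cyba chains, and it works only after the cytosolic factors and a Rac GTPase have joined it. Superoxide dismutases turn superoxide into hydrogen peroxide, which catalase and glutathione peroxidases break down. Macrophages use the oxidase to kill ingested microbes and for signaling.

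Cybb and Sod2 were at least 2-fold higher in M1 than in M0 and in RM1 than in RM0, where 9.37% and 6.16% of tested genes were called higher by that measure, and no other member differed by 2-fold in any of the 7 comparisons of libraries. Their promoters are shown with those of Cyba and Sod1, their partner chain and their cytosolic counterpart, because the members of each pair differed unequally between these libraries. The sequences are the 250 bases before the gene's start in RefSeq on GRCm38.p6, written 5′ to 3′ on the gene's strand, and capitals mark every match to the searched motifs on either strand. RefSeq promoters were found for 7 of the 9 members, all but Ncf4 and Rac2. The RefSeq start of Sod1 lies just inside the span listed for it with the counts.
Cybb (chrX:9469325-9469574, minus strand): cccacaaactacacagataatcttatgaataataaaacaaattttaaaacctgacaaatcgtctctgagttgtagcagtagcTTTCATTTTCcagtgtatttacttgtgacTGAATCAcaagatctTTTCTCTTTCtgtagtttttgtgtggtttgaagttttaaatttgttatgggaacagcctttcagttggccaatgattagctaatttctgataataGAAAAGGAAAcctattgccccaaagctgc
Cyba (chr8:122432941-122433190, minus strand): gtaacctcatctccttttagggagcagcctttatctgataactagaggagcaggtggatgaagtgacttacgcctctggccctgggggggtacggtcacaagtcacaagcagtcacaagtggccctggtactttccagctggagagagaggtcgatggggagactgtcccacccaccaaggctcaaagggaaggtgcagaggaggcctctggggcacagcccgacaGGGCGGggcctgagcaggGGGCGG
Sod2 (chr17:13007589-13007838, plus strand): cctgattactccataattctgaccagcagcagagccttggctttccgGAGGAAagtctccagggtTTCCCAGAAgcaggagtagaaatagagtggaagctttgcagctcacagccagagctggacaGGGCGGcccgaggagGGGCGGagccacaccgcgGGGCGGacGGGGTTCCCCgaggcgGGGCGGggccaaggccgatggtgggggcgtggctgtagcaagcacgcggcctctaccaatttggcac
Sod1 (chr16:90220512-90220761, plus strand): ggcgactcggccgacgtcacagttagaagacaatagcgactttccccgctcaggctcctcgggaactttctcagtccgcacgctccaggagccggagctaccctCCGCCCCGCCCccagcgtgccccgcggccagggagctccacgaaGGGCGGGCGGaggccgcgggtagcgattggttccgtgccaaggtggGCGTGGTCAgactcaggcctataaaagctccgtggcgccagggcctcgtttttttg

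The motifs searched were GAGGAA, which is the letters of a PU-box, TGANTCA, which is an element of the AP-1 type, and TTCNNNGAA, which is a STAT element of the interferon-γ type. A wider variant of the last, with its outer trios 4 bases apart, was also searched, as were the kappaB consensus and a pair of GAAA 2 bases apart, which is the core of interferon-stimulated elements. The last motifs were the GC box GGGCGG and TGACNNNGC, the core of the antioxidant response element. The Cybb window held 3 matches to the paired GAAA, which begin at -168, -124 and -29 counted back from the start, and 1 match to TGANTCA at -139. The paired GAAA occurred in 2.98% of 32851 promoter windows of the same length and TGANTCA in 6.75%. The Cyba window held GGGCGG at -24 and -6 and none of the other motifs, and this motif is common, in 32.7% of windows. The Sod2 window held GAGGAA (23.3% of windows) at -203, TTCNNNGAA (7.02%) at -185, a kappaB match (7.25%) at -83, and 4 matches to GGGCGG. In the Sod1 window the matches were 4 to GGGCGG, some of which overlap each other, and 1 to TGACNNNGC (10.2% of windows) at -56. The wider variant with 4 bases between the trios, found in 5.85% of windows, was in none of the 7 member windows. Members whose windows are not printed carried some of the same motifs. Cat and Gpx1 held a kappaB match, Cat held GAGGAA, and Ncf1 held TTCNNNGAA and the paired GAAA. Ncf1 and Cat also held GGGCGG. The windows also differed in base composition, with 34% G or C in Cybb, 60% in Cyba, 63.6% in Sod2 and 66.4% in Sod1. A match describes letters in the window and says nothing about which factor was bound.

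The 6 libraries held 17894937 to 18870516 counts, and all 9 members had at least 1157 counts in every library. TMM scaling, which sets libraries to a common level over most genes, had factors from 0.8004 in M1 to 1.134 in M2, and levels below are CPM, the counts per 1e+06 counted reads, after this scaling. Scaling by library totals alone shifts the median of all tested genes, as log2 fold change, from -0.0256 to -0.462 in M1 against M0, from -0.00552 to -0.252 in RM1 against RM0 and from -0.012 to 0.129 in RM1 against M1, and directions that turn with it are named. All 8 macrophage markers had at least 10 counts in every library, and 6 lymphocyte markers summed to 1 to 4 counts. The 7 neutrophil markers measured summed to 2852 to 51252 counts, nearly all from S100a8 (4580 in M0, 32464 in M1 and 2846 in M2, and with radiation 6667 in RM0, 51228 in RM1 and 3492 in RM2), with the defining markers Ltf and Cxcr2 at 0 in all 6 libraries. The 6 fibroblast markers summed to 128 to 764 counts, mostly Dcn with 627 counts in M1 and 726 in RM1, while Col1a2 and Col3a1 were at 0. S100a8 and Dcn were thus also higher in the M1 and RM1 libraries, and their part in the results below was not tested. Nos2, the inducible nitric oxide synthase of M1 macrophages, had 14393 counts in M0 and 169925 in M1, whereas Arg1, an arginase of M2 macrophages, had 0 in M0 and 31 in M2 and the M2 markers Retnla and Chil3 were at 0 throughout. The remaining M2 marker, the mannose receptor Mrc1, went the other way, with 50 counts in M1, 10 in M0 and 6 in M2. Of the other M1 markers, Cd86 had 176 counts in M0 and 493 in M1. Il1b and Tnf were not called in M1 against M0, at log2 fold changes of 0.52 and 0.28. With scaling by totals they stood at 0.08 and -0.17.

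Cybb (NM_007807, chromosome X, 9435254 to 9469324, minus strand), the catalytic chain of flavocytochrome b that carries the electrons, varied most. Its level was 268 CPM in M0, 1088 in M1 and 188 in M2, and with radiation 339 in RM0, 794 in RM1 and 204 in RM2. The M1 and RM1 libraries were the highest and the M2 and RM2 libraries the lowest, and the highest level was 5.79 times the lowest. Between M1 and M0 the log2 fold change was 2.02 (95% counting interval 1.97 to 2.06), a 4.05-fold difference that was above that of 97.3% of tested genes. RNA was taken from whole cultures, so more cells with the transcript and more of it per cell cannot be told apart here or below. Between RM1 and RM0 it was 1.23 (1.18 to 1.27), and 0.98 when libraries were scaled by their totals, which falls just short of 2-fold. The listed span covers 64.9% of the annotated gene, so where in the gene its reads were counted is known only in part.

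Cyba (NM_007806, chromosome 8, 122424771 to 122432940, minus strand) encodes the smaller membrane chain, without which the Cybb protein is not stable. It had 510 CPM in M0, 988 in M1 and 434 in M2, and with radiation 534 in RM0, 578 in RM1 and 341 in RM2. M1 stood above the other 5 libraries and RM2 was the lowest. M1 against M0 gave a log2 fold change of 0.95 (0.92 to 0.99), just under 2-fold, but 0.51 with scaling by totals. In RM1 against RM0 it was 0.11 (0.07 to 0.15) and turned to -0.13 with scaling by totals.

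The ratio of Cybb to Cyba counts within a library does not depend on the scaling. It was 0.526 in M0, 1.1 in M1 and 0.433 in M2, and 0.635 in RM0, 1.37 in RM1 and 0.597 in RM2. The counting intervals of M1 (1.08 to 1.13) and RM1 (1.34 to 1.41) lay above those of the other 4 libraries, and RM1 lay above M1. In each state the irradiated library had the higher ratio. Being a ratio of counts, it also carries the different lengths of the transcripts.

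**Figure D1:**
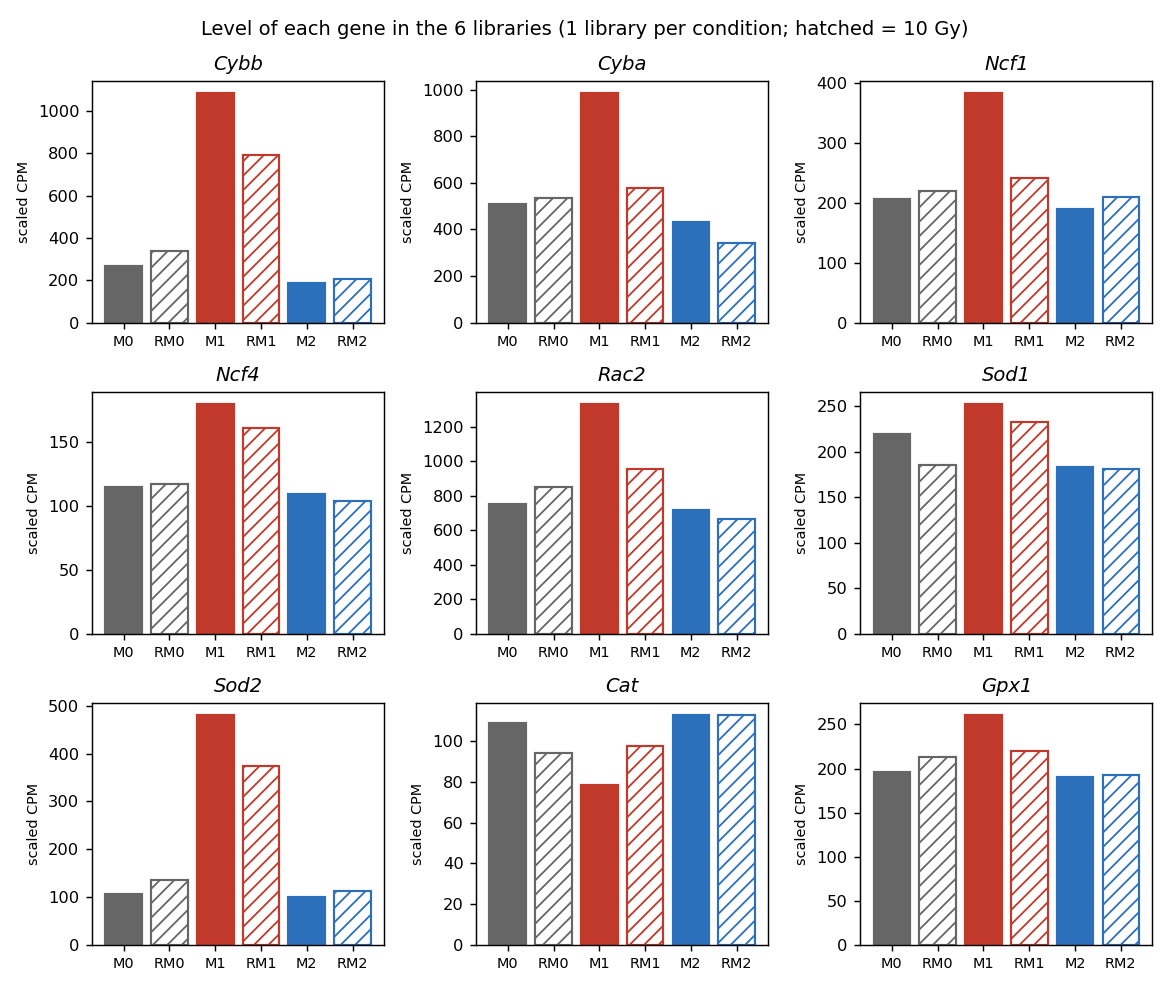
Level of each of the 9 genes (vertical axis, TMM-scaled CPM, starting at 0) in the 6 libraries, with irradiated libraries hatched; each bar is 1 library, so no error is drawn. Cybb stands at 268 CPM in M0 and 1088 in M1 and Sod2 at 106 and 481, while Cat is lowest in M1 at 78.3; with scaling by library totals Sod1 and Gpx1 would stand lower in M1 than in M0.

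Ncf1 (NM_001286037, chromosome 5, 134220053 to 134229625, minus strand) encodes the cytosolic organizer that brings the other factors to the membrane once phosphorylated. Its level was 206 CPM in M0, 384 in M1 and 190 in M2, and with radiation 220 in RM0, 241 in RM1 and 209 in RM2. M1 was the single high library, and the other 5 lay close together. The log2 fold change was 0.90 (0.84 to 0.96) in M1 against M0 and 0.13 (0.07 to 0.19) in RM1 against RM0, the second turning to -0.12 with scaling by totals. An exon of Ncf1 overlaps the antisense gene Gtf2ird2 over 3.88% of its 100-base windows, and without a stated strand setting such reads cannot be assigned. Gtf2ird2 itself had 18 counts in M1 and 133 in M0, far below Ncf1 with 5674 and 4079. None of the other 8 members shared a 100-base window with another gene.

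Ncf4 (NM_008677, chromosome 15, 78244811 to 78262580, plus strand) encodes a cytosolic subunit that binds a phosphoinositide of phagosome membranes. It had 115 CPM in M0, 180 in M1 and 109 in M2, and with radiation 117 in RM0, 161 in RM1 and 104 in RM2. Here both M1 libraries were high, unlike Ncf1 and Cyba, for which RM1 lay near RM0. The log2 fold changes were 0.64 (0.56 to 0.72) in M1 against M0 and 0.47 (0.39 to 0.55) in RM1 against RM0. With scaling by totals they were 0.20 and 0.22.

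Rac2 (NM_009008, chromosome 15, 78559169 to 78572783, minus strand) encodes the Rac GTPase of blood cells that switches the assembled oxidase on. Its level was 749 CPM in M0, 1333 in M1 and 714 in M2, and with radiation 850 in RM0, 956 in RM1 and 663 in RM2. M1 was again the highest and RM2 the lowest. The log2 fold change was 0.83 (0.80 to 0.86) in M1 against M0 and 0.17 (0.14 to 0.20) in RM1 against RM0, with the second at -0.08 when scaled by totals. The ratio of Rac2 to its ubiquitous relative Rac1 stayed between 3.3 and 3.95 counts per count in the 6 libraries.

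Of the enzymes that remove superoxide, Sod2 (NM_013671, chromosome 17, 13007839 to 13018119, plus strand), the manganese dismutase of mitochondria, had 106 CPM in M0, 481 in M1 and 100 in M2, and with radiation 135 in RM0, 374 in RM1 and 112 in RM2. The pair of M1 libraries stood far above the other 4, as for Cybb. The log2 fold change was 2.18 (2.11 to 2.26) in M1 against M0, a 4.54-fold difference above that of 97.6% of tested genes. In RM1 against RM0 it was 1.47 (1.40 to 1.54), or 2.77-fold. The listed span covers 31% of the annotated Sod2 gene.

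Sod1 (NM_011434, chromosome 16, 90220742 to 90226324, plus strand), the copper and zinc dismutase of the cytosol, had 220 CPM in M0, 253 in M1 and 183 in M2, and with radiation 186 in RM0, 233 in RM1 and 181 in RM2. Its highest level was 1.4 times its lowest, against 4.79 times for Sod2. M1 against M0 gave a log2 fold change of 0.20 (0.14 to 0.27) but -0.24 with scaling by totals, and in RM1 against RM0 it was 0.33 (0.26 to 0.39). Within a library the Sod2 to Sod1 ratio of counts was 0.481 in M0, 1.9 in M1 and 0.547 in M2, and with radiation 0.725 in RM0, 1.6 in RM1 and 0.619 in RM2. The mitochondrial dismutase thus had more counts than the cytosolic one in M1 and RM1 and fewer in the other 4 libraries.

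Cat (NM_009804, chromosome 2, 103453904 to 103485153, minus strand), the peroxisomal catalase that splits hydrogen peroxide, had 109 CPM in M0, 78.3 in M1 and 113 in M2, and with radiation 94.1 in RM0, 97.8 in RM1 and 113 in RM2. M1 was the lowest library and the M2 libraries the highest, at the other ends from Cybb. In M1 against M0 the log2 fold change was -0.48 (-0.58 to -0.37), and -0.92 with scaling by totals. With TMM scaling it was the only value below 0 among the 9 members in this comparison. Sod1 and Gpx1 joined it below 0 with scaling by totals. In RM1 against RM0 Cat was at 0.05 (-0.04 to 0.15), not distinguishable from 0 by counting error, and at -0.19 with scaling by totals.

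Gpx1 (NM_008160, chromosome 9, 108339080 to 108340344, plus strand), a selenium enzyme that reduces peroxides with glutathione, varied least. It had 196 CPM in M0, 261 in M1 and 190 in M2, and with radiation 213 in RM0, 220 in RM1 and 193 in RM2, with the highest level 1.37 times the lowest. M1 against M0 gave a log2 fold change of 0.41 (0.35 to 0.48) but -0.03 with scaling by totals, and in RM1 against RM0 it was 0.05 (-0.02 to 0.11) and -0.20 with scaling by totals. The listed span of Gpx1 covers 87.7% of the annotated gene. Counts of Cat per count of Sod2, the enzymes that remove and make hydrogen peroxide, were 1.03 in M0, 0.163 in M1 and 1.13 in M2, and with radiation 0.698 in RM0, 0.262 in RM1 and 1.01 in RM2.

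**Figure D2:**
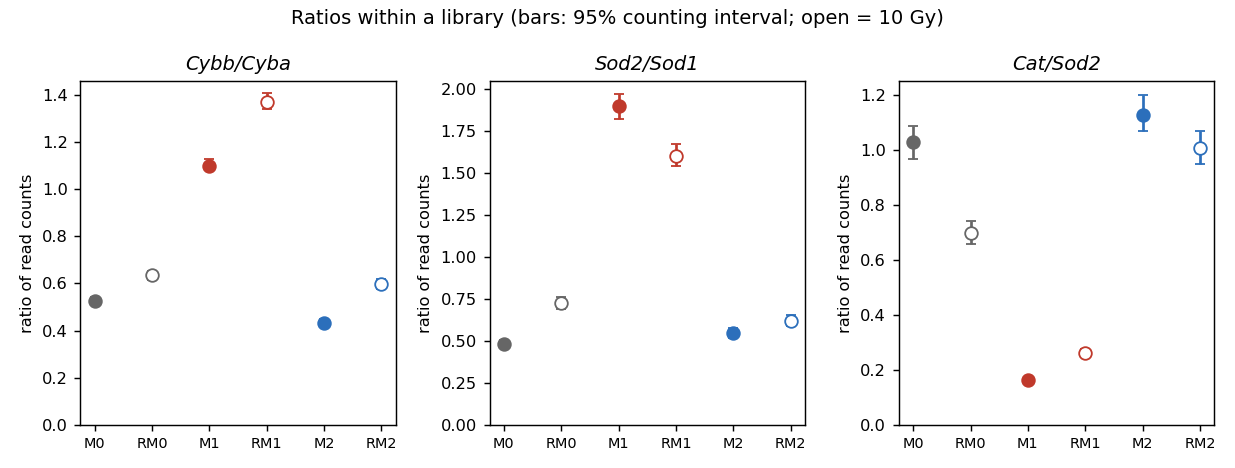
Ratios of read counts of 2 members within a library (vertical axes from 0), which do not depend on scaling, for Cybb to Cyba, Sod2 to Sod1 and Cat to Sod2; bars are 95% exact counting intervals and open symbols are irradiated libraries. M1 and RM1 stand at 1.1 and 1.37 for Cybb to Cyba and at 0.163 and 0.262 for Cat to Sod2, apart from the other 4 libraries in each panel.

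As a whole, 2 of the 9 members, both higher, were called at 2-fold in M1 against M0, where 22.7% of 11778 tested genes were called and 9.37% were called higher. The median log2 fold change was 0.83 over the 9 members and -0.03 over all tested genes. The 5 oxidase members had a median of 0.90 and all lay between 0.64 and 2.02, whereas the 4 defence members ranged from -0.48 to 2.18 with a median of 0.31. With scaling by totals the oxidase members stayed above 0 but were lower. Cybb stood at 1.58, Cyba at 0.51, Ncf1 at 0.46, Rac2 at 0.39 and Ncf4 at 0.20. With that scaling Sod2 stood at 1.74 and Cat at -0.92. Sod1, Cat and Gpx1 were then below 0, and so was the median of the defence members. In RM1 against RM0 the same members, Cybb and Sod2, were called, with 14% of 11713 tested genes called and 6.16% called higher, but the median over the members was 0.17. With scaling by totals Sod2 alone was called there. Cyba, Ncf1, Rac2, Cat and Gpx1 were below 0 with that scaling, and so was the median over the members.

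The 2 polarization comparisons differ between non-irradiated and irradiated cells by the same amount as the irradiation comparisons differ between M1 and M0, since they use the same 4 libraries. These differences, RM1 against M1 minus RM0 against M0, were -0.79 (-0.85 to -0.73) for Cybb, -0.84 (-0.89 to -0.79) for Cyba, -0.77 (-0.85 to -0.68) for Ncf1, -0.66 (-0.70 to -0.62) for Rac2 and -0.71 (-0.81 to -0.62) for Sod2. They were smaller for Gpx1, at -0.36 (-0.46 to -0.27), and Ncf4, at -0.18 (-0.29 to -0.06), and above 0 for Sod1, at 0.12 (0.03 to 0.21), and Cat, at 0.53 (0.39 to 0.67). With 1 library per condition these differences have counting error only and were not tested. They also depend on the scaling. With scaling by totals Ncf4 stood at -0.02 in RM1 against M1 and -0.03 in RM0 against M0, so its difference was no longer below 0. The other members kept the direction of their differences.

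IL-4 polarization was compared with M0 in the same manner. In M2 against M0 none of the 9 members was called, with 1.44% of tested genes called, and the median over the members was -0.09. The lowest value was that of Cybb at -0.52 (-0.58 to -0.46), with 2.23% of tested genes lower, followed by Sod1 at -0.26 (-0.33 to -0.20) and Cyba at -0.23 (-0.28 to -0.19). In RM2 against RM0, with 2.61% of tested genes called and again no member, the median was -0.16. The 0.17 of RM1 against RM0 is close in size, but that median lay below 0 with scaling by totals. In RM2 against RM0 Cybb stood at -0.74 (-0.79 to -0.68), Cyba at -0.65 (-0.69 to -0.60) and Rac2 at -0.36 (-0.39 to -0.32). All 5 oxidase members had values below 0 in both M2 comparisons. Cat was at 0.06 (-0.03 to 0.14) in the first and 0.26 (0.17 to 0.35) in the second.

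Irradiation was compared within each state. In RM0 against M0 no member was called, and 1.54% of tested genes were. Sod2 at 0.35 (0.27 to 0.43) and Cybb at 0.34 (0.29 to 0.39) were the highest members there, and Sod1 at -0.24 (-0.30 to -0.18) and Cat at -0.21 (-0.30 to -0.12) the lowest. These 4 values have intervals away from 0, yet each is under 1.5-fold.

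In RM1 against M1 again no member was called, with 5.34% of tested genes called, but 8 of the 9 members were lower in RM1 and the median was -0.36, against -0.01 over all tested genes. The exceptions in direction were Cat at 0.32 (0.21 to 0.43) and, with scaling by totals, Sod1 at 0.02. The lowest values were those of Cyba at -0.77 (-0.81 to -0.74) and Ncf1 at -0.67 (-0.73 to -0.62), which are 1.71-fold and 1.6-fold lower in RM1. Rac2 stood at -0.48 (-0.51 to -0.45), Cybb at -0.45 (-0.49 to -0.42), Sod2 at -0.36 (-0.41 to -0.31), Gpx1 at -0.24 (-0.31 to -0.18) and Ncf4 at -0.16 (-0.24 to -0.08). This comparison and M1 against M0 share the M1 library, so a high count in that library alone would enter both with opposite signs.

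In RM2 against M2 no member was called, with 1.97% of tested genes called. Cyba was the lowest at -0.35 (-0.39 to -0.30), and Sod2 at 0.16 (0.07 to 0.25) and Ncf1 at 0.14 (0.08 to 0.20) were the highest. For Sod1, Cat, Ncf4 and Gpx1 the interval included 0.

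**Figure D3:**
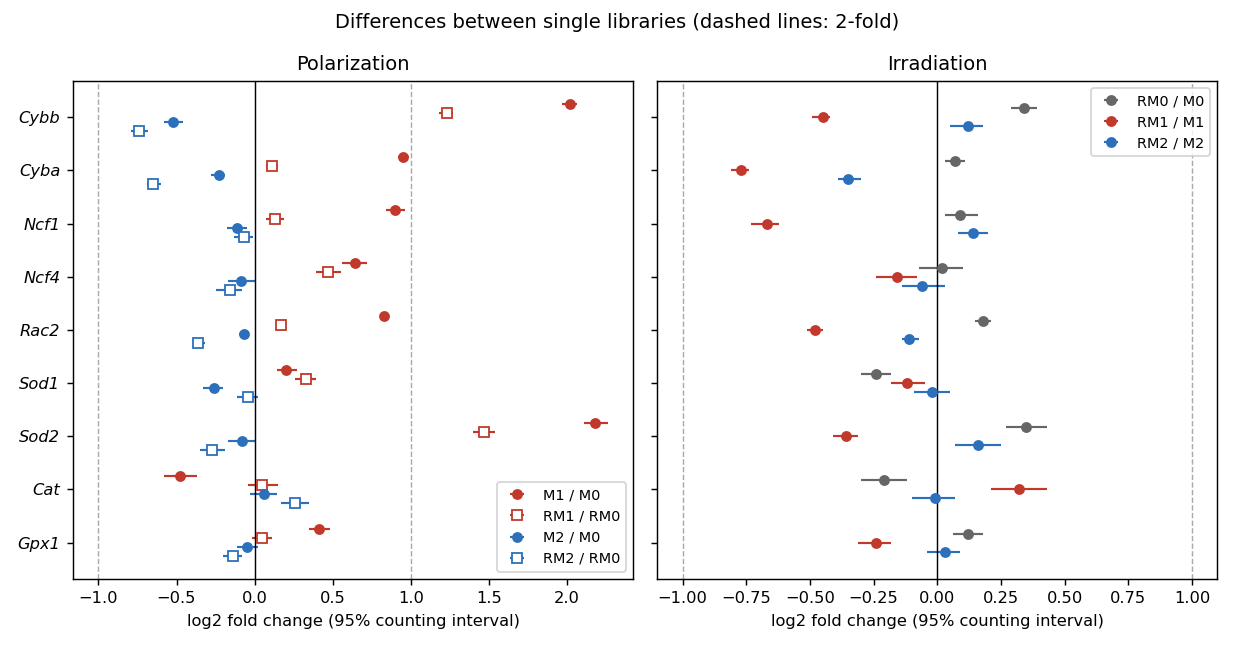
Log2 fold change (horizontal axis, TMM scaling) of each member between 2 libraries, for polarization on the left and irradiation on the right; bars are 95% exact counting intervals and dashed lines mark 2-fold. Cybb and Sod2 lie past the 2-fold line in both M1 comparisons, and all members but Cat lie below 0 in RM1 against M1, where Sod1 turns to 0.02 with scaling by totals; on the left, Sod1 and Gpx1 in M1 against M0 and Cyba, Ncf1, Rac2, Cat and Gpx1 in RM1 against RM0 turn below 0 with that scaling.

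Effects shared across the libraries were tested in 1 model of all 6, with a term for M1, a term for M2 and a term for irradiation, using edgeR's quasi-likelihood test with Benjamini-Hochberg adjustment over 11574 genes. In this model irradiated and non-irradiated cells stand in for replicates of a polarization, and the same effect is assumed in both, which the values above do not show for most members. For M1, 6 of the 9 members passed an adjusted p of 0.05 and all 6 were higher, where 47.6% of all genes passed and 23.3% passed as higher. Sod2 rose by 1.83 on the log2 scale (SE 0.167, adjusted p = 1.66e-05 by edgeR) and Cybb by 1.63 (SE 0.182, adjusted p = 6.0e-05). Ncf4 rose by 0.55 (SE 0.118, adjusted p = 0.0031), and Cyba, Ncf1 and Rac2 by 0.53, 0.54 and 0.50 with adjusted p of 0.0316, 0.0323 and 0.0299. Sod1 at 0.26 (adjusted p = 0.0958), Gpx1 at 0.23 (0.168) and Cat at -0.21 (0.245) did not pass. The calls of Cybb and Sod2 held in every alternative fit tried, but with scaling by totals Cyba, Ncf1, Ncf4 and Rac2 lost theirs (adjusted p of 0.328, 0.358, 0.136 and 0.338 by edgeR) and Cat passed as lower, at -0.55 (adjusted p = 0.0281). Rac2 also lost its call without the M2 and RM2 libraries, at a similar log2 fold change of 0.48 (adjusted p = 0.075 by edgeR). Without the irradiation term Cyba at 0.58, Ncf1 at 0.55 and Rac2 at 0.52 did not pass (adjusted p of 0.0872, 0.0629 and 0.0536 by edgeR), though these values are no smaller than those with the term.

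For M2 no member passed in this model, where 0.19% of all genes did, and 2 had an unadjusted p under 0.05 in edgeR's test, Cybb at -0.64 and Cyba at -0.46. Over all 11574 genes, 1173 had an unadjusted p under 0.05 in that test for M2 and 1707 for irradiation. The smallest adjusted p was 0.341, for Cybb. Fitted without the M1 and RM1 libraries, Cybb at -0.62 (adjusted p = 3.14e-08 by edgeR) and Cyba at -0.43 (adjusted p = 3.23e-04) passed as lower, so these calls depend on whether M1 and RM1 are in the fit. For irradiation no member passed, where 0.475% of all genes did, and Cyba at -0.35 was the only member with an unadjusted p under 0.05 in edgeR's test (adjusted p = 0.307). DESeq2 likewise passed 0 members for M2 and 0 for irradiation. For the irradiation term the 3 states stand in for replicates, and an equal effect is assumed in each. A value near 0 can thus combine values of opposite sign. Cybb, at -0.00 in the model, stood at 0.34 in RM0 against M0, -0.45 in RM1 against M1 and 0.12 in RM2 against M2. Fitted without M1 and RM1, Cybb stood at 0.24 and Sod2 at 0.26, and neither passed.

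Compared per length of the longest annotated transcript, which allows levels of different genes to be set side by side, Cyba was the most abundant member in all 6 libraries, with a mean of 758 CPM per kb. Rac2 followed with 289 and Gpx1 with 198. Cybb stood at 56.5 CPM per kb in M0, place 6 of the 9, and at 229 in M1, place 4, and Sod2 went from place 9 in M0 with 18 to place 7 in M1 with 82. The place of Sod1 depends on the length used, since it had a mean of 52.7 CPM per kb with its longest transcript of 3970 bases and 327 with the listed RefSeq transcript of 641 bases.

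Other parts of the oxidase were described from a list of 12 genes, of which 8 were measured in M1 against M0. The GTPases Rac1 and Rap1a stood at 0.66 (0.601 to 0.72) and 0.36 (0.274 to 0.446) in M1 against M0, and with scaling by totals at 0.22 and -0.08. Nox1, a relative of Cybb better known from the gut, had 17 counts in M0, 15 in M2, 13 in RM0, 9 in RM2 and 0 in both M1 and RM1, at least 4.22-fold lower in M1 than in M0 and at least 3.69-fold lower in RM1 than in RM0 against a floor of 3 counts per library. Rac3 was the other gene called in M1 against M0, from 6 counts to 14, a log2 fold change of 1.36 (0.176 to 3.31) that falls to 0.99 and out of the call with scaling by totals. With TMM scaling 1 gene of this list was called higher and 1 lower in M1 against M0. In RM1 against RM0 1 was called lower, and none was called in the other 5 comparisons. With scaling by totals Nox3, at 37 counts in M0 and 17 in M1, stood at -1.05 in M1 against M0, past 2-fold lower. Nox4, Duox1 and Noxa1 were at 0 in all 6 libraries. In the model of 6 libraries 2 of the 7 tested passed as higher and 1 as lower for M1, and 0 passed for M2 and for irradiation, with 0 at an unadjusted p under 0.05 for either.

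Of 10 regulators of the oxidase, 9 were measured and none was called in any of the 7 comparisons with TMM scaling. With scaling by totals Prkca at -1.40, Nrros at -1.30 and Vav3 at -1.11 were past 2-fold lower in M1 against M0. So were Hvcn1 at -1.13 and Nrros at -1.10 in RM1 against RM0. The median of the 9 in M1 against M0 was -0.02 on the log2 scale, that of all tested genes being -0.03. With scaling by totals these medians were -0.46 and -0.462. Vav1, an exchange factor that loads Rac with GTP, had 0.73 (0.662 to 0.794) in M1 against M0, and the GDP dissociation inhibitors Arhgdia and Arhgdib had 0.61 (0.572 to 0.64) and -0.02 (-0.0618 to 0.0166). In the model of 6 libraries 1 regulator, Vav1, passed as higher for M1 and 2 passed as lower, Nrros at -0.86 and Prkca at -0.66. For M2 and for irradiation 0 passed, with 2 at an unadjusted p under 0.05 for each of these. Of all 11574 genes, 1173 and 1707 were under it.

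Of 19 other genes of superoxide and peroxide defence, 15 were measured. Their median in M1 against M0 was 0.41, and -0.03 with scaling by totals. Prdx5, a peroxiredoxin of mitochondria and peroxisomes, had 12912 counts in M0 and 26434 in M1, a difference of 1.46 (1.43 to 1.49) on the log2 scale. Glrx, a glutaredoxin that removes glutathione from proteins, had 3866 and 8845, a difference of 1.62 (1.56 to 1.67). These were the 2 called in M1 against M0 with TMM scaling, both higher. Glrx at 1.02 (0.965 to 1.07) was the only such call in RM1 against RM0. With scaling by totals it stood there at 0.77 and was not called. With that scaling Ccs at -1.08 and Srxn1 at -1.07 were past 2-fold lower in M1 against M0. So was Ccs at -1.21 in RM1 against RM0. Prdx1 stood just under 2-fold in M1 against M0, at 0.99 (0.959 to 1.02), and Prdx6 at 0.87 (0.824 to 0.921). In RM1 against M1 the median of the 15 was -0.45, and -0.31 with scaling by totals, with 0 called. For M1 in the model of 6 libraries 8 passed as higher and 2 as lower, and 0 passed for M2 and for irradiation, with 4 and 5 at an unadjusted p under 0.05. Of all 11574 genes, 1173 and 1707 were under it.

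**Figure D4:**
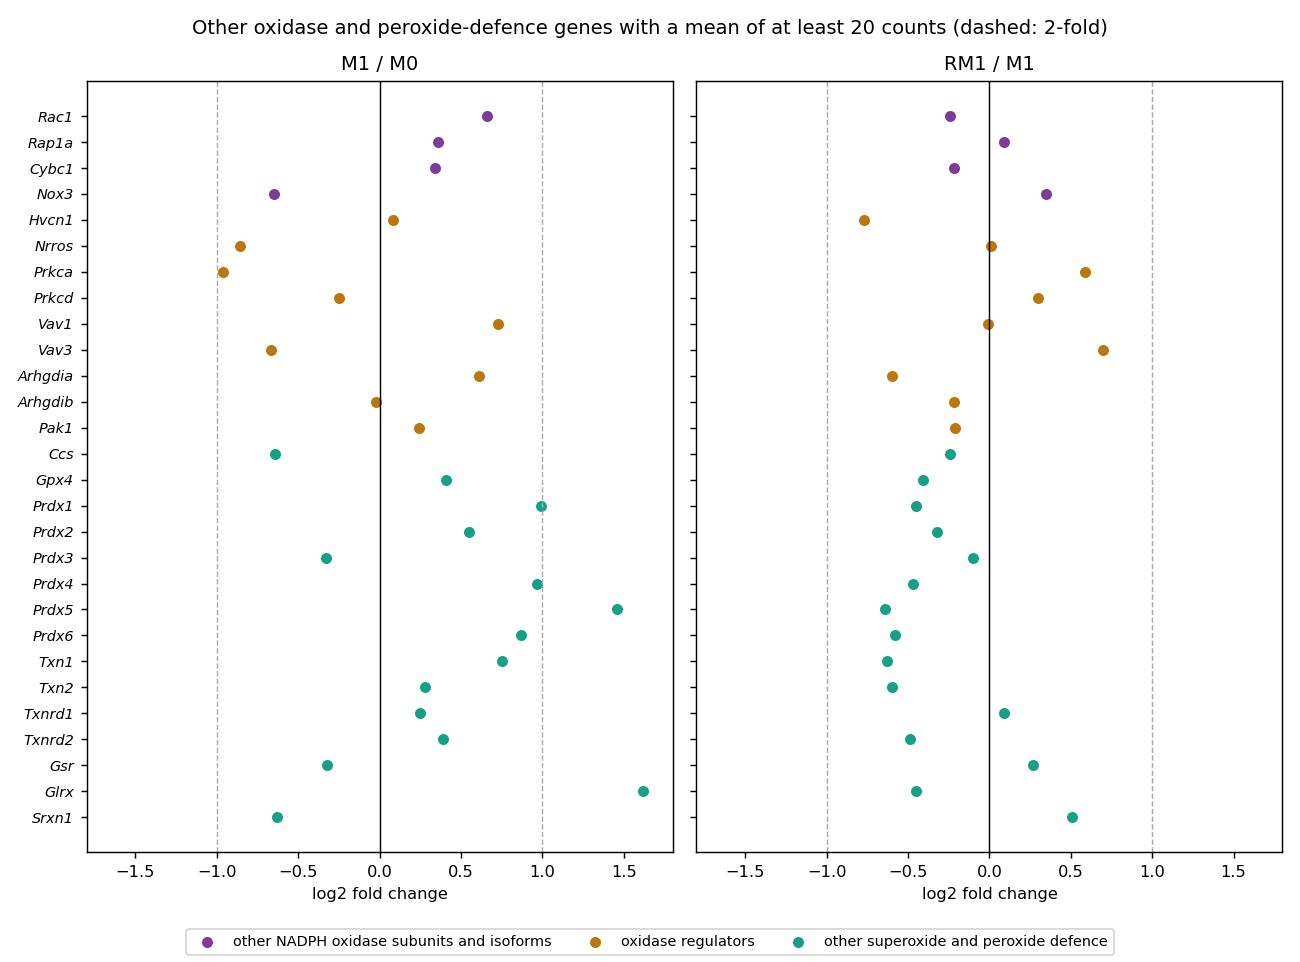
Log2 fold change (horizontal axes, TMM scaling) of 28 listed genes outside the 9 members that averaged 20 counts or more, in M1 against M0 on the left and RM1 against M1 on the right; each point is a difference between 2 libraries, colors mark the list and dashed lines 2-fold. Prdx5 and Glrx lie past 2-fold on the left and no gene does on the right. With scaling by totals the median of all tested genes is -0.462 on the left and 0.129 on the right, and points near 0 change side. Nox3, Nrros, Prkca, Vav3, Ccs and Srxn1 would then lie past 2-fold lower on the left.

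The genes most like each member over the 6 libraries were sought among 9411 genes that averaged 100 counts or more, by the distance between centered log2 levels, for the 5 members whose level spanned at least 1 on that scale. For Cybb they were Sdc3 (distance 0.20), Nr1d1 (0.29) and Prdm10 (0.30). For Sod2 they were Prdm10 (0.22), Arc (0.22) and Bst1 (0.24), so that Prdm10 was near both. The nearest to Cyba were 0610012G03Rik (0.10), Rabac1 (0.11) and Dpm3 (0.17), and to Ncf1 Manbal (0.11), Cd72 (0.14) and St6galnac6 (0.17). Rac2 had the smallest distances, to Ubtd1 (0.05), Mkrn1 (0.07) and Gnai2 (0.08). Such a distance tends to grow with the span of a member, which was 1.01 for Rac2, 2.26 for Sod2 and 2.53 for Cybb. Distances of different members therefore do not rank how alike the patterns are. These distances rest on 6 libraries that share their scaling, and they are a description of these libraries.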

How the data were processed

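RNA of RAW264.7 cells was sequenced in 6 conditions with 1 library each, and the samples were grouped by their titles. Per the submitters' processing notes, Trimmomatic 0.36, HISAT2 2.2.1, HTSeq 0.11.3 and mm10 were used. The strand setting is not given in the sources used here. The authors deposited raw counts per gene, without normalization, for 24062 genes, and the gene positions in those tables are those of GRCm38. Dates stood in place of 27 symbols, and 4 IDs were not unique. None of these is a member.

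TMM scaling was done in edgeR 4.0.16 (limma 3.58.1, R 4.3.3), with 2 as the prior count of log2 fold changes. A call between 2 libraries needed a 2-fold difference and 10 counts or more in either. Such a call has no p-value, and it compares libraries and not conditions. The additive model (edgeR quasi-likelihood test) used genes reaching 10 counts in 3 or more libraries, had 2 residual degrees of freedom, and fitted a biological coefficient of variation of 0.107. Intervals at 95% are exact Clopper-Pearson, and they and the floor of 3 counts (0.159 to 0.168 CPM) cover counting error only. The fitting was run on simulated libraries in which irradiation had the same effect in all 3 states. That run says nothing about effects that differ between states. Transcript lengths came from GENCODE M21 and promoters from RefSeq. Other steps and figures used scipy 1.17.1, pandas 2.3.3, numpy 2.4.6 and matplotlib 3.10.9 in Python 3.11.15.

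The text names all 9 members and each gene of the pathway lists called at 2-fold in a comparison with TMM scaling. It also names the 3 listed genes of highest mean count per pathway list. To these it adds the 3 genes of most similar pattern for members spanning at least 1 on the log2 scale. Among the genes that this rule picks, 1 is left out and not reported here. Nox3, Nox4, Duox1, Noxa1, Hvcn1, Nrros, Prkca, Vav3, Ccs, Srxn1, Gtf2ird2 and the named marker genes fall outside this rule and were chosen after their values were seen. The marker genes Emr1, Fcgr1, Csf1r, S100a9, Camp, Lum and Col1a1 were also called at 2-fold in a comparison and are not described. The members and lists were chosen with earlier results of these data known. Alternatives were DESeq2 1.42.0, other count filters, a 0.25 prior count, scaling by totals, 1.5-fold and 4-fold thresholds, other model terms, pairs of libraries left out and other transcript lengths. The length of the listed RefSeq transcript was added after the data had been seen.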

Additional observations from a re-analysis of the deposited data

Results flagged for a closer look

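For 7 members the log2 fold change with irradiation had opposite signs in different states, with counting intervals on either side of 0. In each case 1 library per condition was compared, and the difference between states was not tested. The share of all genes that meet the same rule was not counted. The count of 7 is thus not shown to be particular to these members. Cybb stood at 0.34 in RM0 against M0, -0.45 in RM1 against M1 and 0.12 in RM2 against M2. Cyba stood at 0.07, -0.77 and -0.35 in the same order, Ncf1 at 0.09, -0.67 and 0.14, Rac2 at 0.18, -0.48 and -0.11, and Sod2 at 0.35, -0.36 and 0.16. Cat, the only one of the 7 that was lower in RM0 and higher in RM1, stood at -0.21 in RM0 against M0 and 0.32 in RM1 against M1. Gpx1 stood at 0.12 in RM0 against M0 and -0.24 in RM1 against M1. Scaling by totals left the signs of these values as they are. Cyba in RM0 against M0, its only value above 0, fell from 0.07 (0.03 to 0.11) to 0.02 with that scaling. An interval as wide would then include 0, so the place of Cyba among the 7 depends on the scaling.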

How the results depend on the processing

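No paired analysis was possible because each condition has 1 library, beyond the additive model itself, which sets irradiated against non-irradiated libraries within the 3 states. The direction of no called value reversed, and a prior count of 0.25 moved none of the 63 log2 fold changes of members beyond its counting interval, whereas scaling by totals moved 37. The number of members called rose at 1.5-fold to 6 in M1 against M0, to 2 in RM1 against M1 and to 2 in RM2 against RM0, and for RM1 against RM0 it was 1 with scaling by totals and 0 at 4-fold. In the additive model 3 members passed for M1 with scaling by totals and 3 without the irradiation term, where Cyba, Ncf1 and Rac2 did not pass at values of 0.58, 0.55 and 0.52 that were no smaller than with it, and 2 passed for M2 without M1 and RM1. The cause was not tested. Over all genes the calls were 180 in RM0 against M0 (434 with no filter, 55 with at least 50 counts, 696 at 1.5-fold, 9 at 4-fold), 611 in RM1 against M1 (1229, 304, 2036 and 84 in the same order), 232 in RM2 against M2 (510, 67, 848 and 12), 169 in M2 against M0 (427, 38, 582 and 10) and 307 in RM2 against RM0 (598, 104, 1211 and 34). They were 2673 in M1 against M0 (5268 at 1.5-fold, 653 at 4-fold) and 1644 in RM1 against RM0 (3816 and 340). In the additive model 22 genes passed for M2, with 41 by DESeq2, 3 with totals, 56 with no filter, 1322 without M1 and RM1, and 0 without the irradiation term. For irradiation 55 passed, with 115 by DESeq2, 3 with totals, 156 with no filter, 174 without M0 and RM0, 522 without M1 and RM1, and 0 without the polarization term. With totals the share of higher genes among those called went from 41.3% to 16.8% in M1 against M0, from 43.9% to 25% in RM1 against RM0, from 57.8% to 70.5% in RM1 against M1 and from 52.6% to 39.7% in RM2 against M2. With 1 library per condition no spread between cultures was measured, so the narrow counting intervals of these well-counted genes do not show that a difference would recur in other wells.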
